A study of Mus musculus with 14 samples.

Results

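The proteasome genes examined here are the 45 rows of the expression table whose symbol is Psma, Psmb, Psmc, Psmd, Psme, Psmf or Psmg followed by a number, out of 24016 rows in all. The interferon-induced beta subunits Psmb8, Psmb9 and Psmb10 match the same pattern and were set apart. RNA-seq was performed on the C2C12 line of mouse myoblasts, which form myotubes when serum is lowered, after transfection with control siRNA (siCtrl) or with siKlf5, a pool of siRNAs against the zinc-finger transcription factor Klf5. Cells were sampled on days 0, 1, 2 and 3 of differentiation, with 1 library for each siRNA and day and thus 8 libraries in all. The comparisons are Klf5 knockdown against control, which asks what Klf5 loss does in differentiating myoblasts, and later days against day 0. No condition has a replicate, the cells are 1 established line, the knockdown is transient and partial, and all values are mRNA levels, not proteasome protein or activity.

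The proteasome is the protease that degrades proteins tagged with ubiquitin. Its 20S core is a barrel of stacked rings, in which the alpha subunits form the outer gates and the beta subunits the inner rings. In the form of the core that most cells make, only Psmb5 (chymotrypsin-like), Psmb6 (caspase-like) and Psmb7 (trypsin-like) cut peptides. The 19S regulatory particle caps the barrel: its base holds the Psmc ATPases that unfold substrates, with the scaffolds Psmd1 and Psmd2 and the ubiquitin receptor Psmd4, and its lid holds Psmd14, which removes ubiquitin. Psmg1 to Psmg4, Psmd5, Psmd9 and Psmd10 are chaperones that assemble core and base and leave the finished particle, Psme1 to Psme4 are alternative caps that open the gate, and Psmf1 is an inhibitor. In muscle the proteasome is best known for breaking down myofibrillar proteins in atrophy, and in myoblasts it removes short-lived regulators of the cell cycle and of differentiation.

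The values are FPKM, fragments per kilobase of exon, which the authors scaled to 10000000 reads per library, a larger total than is usual, so all values are higher than conventional FPKM. Recovered depth was between 7850497 reads (siCtrl, day 1) and 20301506 reads (siCtrl, day 2). Klf5 was lower in siKlf5 than in siCtrl on every day, at 35.1 against 223.8 FPKM on day 0 and, on the following days in turn, 160 against 381, 192 against 614 and 211 against 933 FPKM. Its level rose with differentiation with either siRNA, and the knockdown libraries of days 1 to 3 stayed below the level of control cells on day 0. The 11 myoblast and myotube markers summed to between 2920 and 3486 FPKM on day 0 and between 18726 and 20199 on day 3, and the 6 markers of cycling cells summed to between 2850 and 3104 on day 0 and between 802 and 1004 on day 3. Markers of endothelium and fat summed to at most 3.81 FPKM in any library and Hbb-b1, Plin1 and Epcam were at 0 throughout, whereas the blood list reached 75.2 (mostly Lyz2) and the epithelial list 56.7 (Cdh1 and Krt14).

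The promoters of the 5 members with the largest called decreases by day 3 and, for contrast, of the catalytic subunit Psmb5, which was not called, are shown here because they are the sequences from which these mRNAs start. Each run is the 250 bases before the RefSeq start site, 5′ to 3′ on the gene's strand, from the RefSeq table on GRCm38.p6. Capitals mark any match, on either strand, to CCGCCC (the GC box core of Sp and Klf factors), CACCC (the core of the Klf GT box), CCAAT (the NF-Y box) or TGACNNNGC (the core of the antioxidant response element, to which Nfe2l1 and Nfe2l2 bind with small Maf proteins). Matches of different motifs may overlap.
Psmg4 (chr13:34162714-34162963, plus strand): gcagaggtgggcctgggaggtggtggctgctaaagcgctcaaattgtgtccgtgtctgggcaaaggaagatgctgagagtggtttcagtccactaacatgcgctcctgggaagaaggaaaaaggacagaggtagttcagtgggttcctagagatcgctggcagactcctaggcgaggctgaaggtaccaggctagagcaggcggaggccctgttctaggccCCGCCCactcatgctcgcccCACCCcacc
Psma1 (chr7:114276117-114276366, minus strand): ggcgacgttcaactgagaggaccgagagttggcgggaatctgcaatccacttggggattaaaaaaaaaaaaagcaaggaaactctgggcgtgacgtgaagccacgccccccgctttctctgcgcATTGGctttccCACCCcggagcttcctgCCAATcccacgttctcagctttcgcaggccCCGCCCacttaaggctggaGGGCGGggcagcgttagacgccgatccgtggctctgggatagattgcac
Psmg1 (chr16:95990961-95991210, minus strand): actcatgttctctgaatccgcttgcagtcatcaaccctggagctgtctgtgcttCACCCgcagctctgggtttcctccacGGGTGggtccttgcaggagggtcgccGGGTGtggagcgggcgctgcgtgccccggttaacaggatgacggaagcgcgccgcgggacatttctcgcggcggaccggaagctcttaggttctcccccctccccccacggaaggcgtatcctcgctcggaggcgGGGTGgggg
Psma7 (chr2:180042465-180042714, minus strand): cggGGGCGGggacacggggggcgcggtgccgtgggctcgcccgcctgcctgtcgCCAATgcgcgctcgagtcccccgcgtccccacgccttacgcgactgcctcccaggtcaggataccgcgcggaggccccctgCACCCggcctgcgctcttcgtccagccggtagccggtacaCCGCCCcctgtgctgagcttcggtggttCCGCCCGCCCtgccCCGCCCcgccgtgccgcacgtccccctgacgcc
Psmd5 (chr2:34870963-34871212, minus strand): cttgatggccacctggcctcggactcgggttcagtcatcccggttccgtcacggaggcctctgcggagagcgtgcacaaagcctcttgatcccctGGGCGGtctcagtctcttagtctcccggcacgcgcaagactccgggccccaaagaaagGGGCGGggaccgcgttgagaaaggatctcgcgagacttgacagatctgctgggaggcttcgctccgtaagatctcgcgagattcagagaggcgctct
Psmb5 (chr14:54617996-54618245, minus strand): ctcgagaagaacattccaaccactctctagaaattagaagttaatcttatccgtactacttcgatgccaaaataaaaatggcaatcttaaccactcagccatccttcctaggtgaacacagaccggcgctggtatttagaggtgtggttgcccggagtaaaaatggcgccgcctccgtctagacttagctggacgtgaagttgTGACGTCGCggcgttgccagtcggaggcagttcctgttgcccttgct

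These promoters differed in the motifs they hold. Psma7 had the most GC bases (77.2%) and 5 CCGCCC matches, Psma1 and Psmd5 had 2 each, Psmg4 had 1, and Psmg1 and Psmb5 had none. Psmg1 instead had 4 CACCC matches, Psmg4, Psma1 and Psma7 had 1 each, and Psmd5 and Psmb5 had none. A CCAAT box was present in Psma1 (2 matches) and Psma7 (1 match). Psmb5 alone among these 6 held TGACNNNGC, 38 bases before the start, and had the lowest share of GC bases (49.6%).

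The RefSeq table had a promoter for 37 of the 45 members, with 40 windows among them. CCGCCC was found in 22 of the 40 windows (55.0%), against 32.7% of all 32851 promoter windows in the table, while the median share of GC bases was 57.6% in the members' windows and 52.4% in all. CACCC occurred in 17 of 40 (42.5%, against 52.0%), CCAAT in 13 of 40 (32.5%, against 33.8%) and TGACNNNGC in 5 of 40 (12.5%, against 10.2%), namely those of Psmb5, Psmb6, Psmc6, Psmd9 and Psmd12. CAGCTG, the E-box favoured by MyoD, was in 2 of 40 (5.0%, against 13.0%), those of Psmd4 and Psmd10. Among the members called lower on day 3, 9 of 16 windows held CCGCCC, and among the other members 13 of 24 did. A match describes letters only, and no binding at these sites was measured here.

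Most proteasome genes were among the abundant mRNAs of these cells. Of the 45 members, 43 had a mean of at least 1 FPKM over the 8 libraries, as had 14312 of the 24016 rows, and these are called expressed. The median of the 43 was 568 FPKM, against 74.0 over all expressed transcripts, and 33 of the 43 were in the highest 10% of expressed transcripts. Together they made up between 0.931% (siCtrl, day 3) and 1.10% (siKlf5, day 0) of all FPKM. Psmb11, the thymus-specific beta subunit, was at 0 in every library, where 3 reads would have given between 0.210 and 0.551 FPKM depending on depth. Psma8, the testis-specific alpha subunit, had 2 reads in all, both in siKlf5 on day 2 (0.611 FPKM). The other 43 rest on between 85 and 7665 reads per library, and because at most 3 reads were kept per position, the most abundant are counted conservatively.

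**Figure D1:**
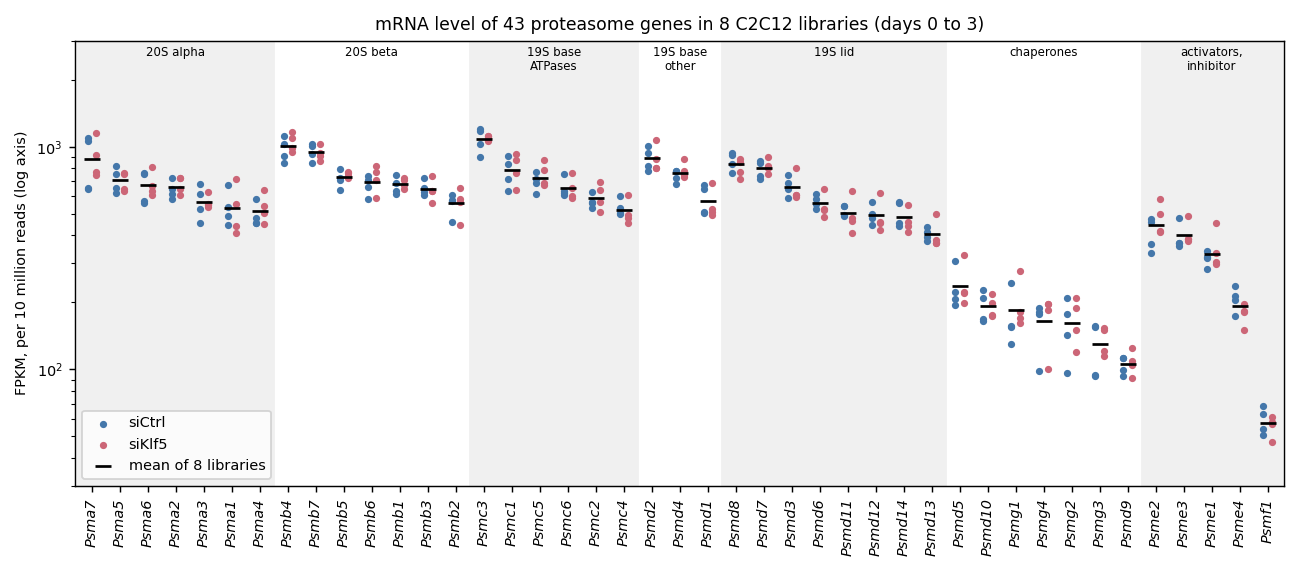
Level of each of the 43 expressed proteasome genes (FPKM per 10000000 reads, log axis) in the 4 siCtrl and 4 siKlf5 libraries, grouped by role; points are libraries of days 0 to 3 and bars are means of the 8. Core and regulatory particle genes lie between means of 406 and 1091 FPKM, the chaperones between 106 and 237, and Psmf1 at 57.5.

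The mRNAs of each particle lay within a narrow range, as did those of the chaperones. The 14 expressed genes of the 20S core had means between 514 FPKM (Psma4) and 1013 FPKM (Psmb4), a 1.97-fold range, with a CV of 21.6%. The 17 genes of the 19S particle had means between 406 FPKM (Psmd13) and 1091 FPKM (Psmc3), a 2.69-fold range, with a CV of 26.8%. The 7 chaperones, which act in passing, were lower, between 106 FPKM (Psmd9) and 237 FPKM (Psmd5). Their range was 2.24-fold with a CV of 25.5%, so a narrow range was not particular to subunits of the particles. The activators and inhibitor were the most uneven, from 57.5 FPKM (Psmf1) to 444 FPKM (Psme2), a 7.72-fold range. These are levels per length of exon, so genes can be compared, but each gene's mappability and its near-identical copies were not corrected for.

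Psmc3, an ATPase of the 19S base and the most abundant member, was at 901, 1180, 1032 and 1207 FPKM in siCtrl on days 0 to 3 and at 1062, 1125, 1101 and 1118 FPKM in siKlf5. Psmb4, a non-catalytic beta subunit and the next in order, was at 1117, 1032, 844 and 912 FPKM in siCtrl and at 1168, 1092, 993 and 944 FPKM in siKlf5. The levels of these genes overlap between libraries, and Psmb4 was higher than Psmc3 in both day 0 libraries and lower on days 1 to 3. Psmf1 was lowest of the expressed members, at 68.8, 50.8, 62.8 and 53.7 FPKM in siCtrl and at 58.1, 47.3, 56.9 and 61.3 FPKM in siKlf5.

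Of the catalytic subunits, Psmb7 was at 1005, 1029, 843 and 933 FPKM in siCtrl and at 1033, 860, 944 and 909 FPKM in siKlf5. Psmb5 was at 799, 721, 639 and 712 FPKM in siCtrl and at 774, 741, 722 and 765 FPKM in siKlf5. Psmb6 was at 741, 708, 585 and 662 FPKM in siCtrl and at 821, 772, 713 and 589 FPKM in siKlf5. Psmb7 was thus above both others in every library, while Psmb5 and Psmb6 overlapped and changed order between libraries. The deubiquitinase Psmd14 was at 565, 560, 456 and 440 FPKM in siCtrl and at 547, 460, 440 and 415 FPKM in siKlf5. The ubiquitin receptor Psmd4 was at 780, 778, 681 and 725 FPKM in siCtrl and at 884, 780, 745 and 732 FPKM in siKlf5. Both had their highest level on day 0 with either siRNA.

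Many proteasome mRNAs fell as the cells differentiated. From day 0 to day 3, 16 of the 43 members (37.2%) were called lower and none higher, with examples from every role: 5 of 7 alpha subunits, 1 of 7 beta subunits, 2 of 6 ATPases, both scaffolds of the base, 2 of 8 lid subunits, 3 of 7 chaperones and 1 of 5 activators and inhibitors. Decreases were moderate, with a median log2 difference of -0.30 over the members (18.8% lower) against -0.09 over all expressed transcripts. Over the 6039 transcripts with a mean of 100 FPKM or more the median was -0.15. The fit was limma on log2(FPKM + 0.1) with siRNA and day as factors over the 8 libraries, a call was a Benjamini-Hochberg adjusted p under 0.05 over all 14312 transcripts, and differences of lowly expressed genes are understated on this scale. Of all 14312 transcripts, 17.6% were called lower and 12.8% higher, and of the 6039 transcripts whose mean was 100 FPKM or more, the range that holds 42 of the 43 members, 27.9% were called lower and 16.3% higher. The error comes from the spread between the siCtrl and siKlf5 libraries of the same day, which may be technical, with 3 residual degrees of freedom before limma's moderation.

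The number of calls depends on how libraries are scaled and fitted. With median-ratio centring the median of all expressed transcripts moved from -0.09 to 0.01 and that of the members from -0.30 to -0.19, and 5 members (11.63%) remained called lower, against 12.8% of the table. With upper-quartile scaling the values were 0.00 and -0.21, and 6 members (13.95%) remained called, against 13.5%. With either of these scalings the members were thus called lower about as often as the table. Without limma's trend 2 members were called lower (9.54% of the table) and with no filter on low values 4 (5.23%), while a pseudocount of 1 gave 16 (18%), a minimum mean of 5 FPKM 17 (20.9%) and limma voom 14 (18.6%). The members' median minus that of all expressed transcripts was -0.21 (log2) with the deposited scaling, -0.20 with median-ratio centring and -0.21 with upper-quartile scaling. The number of members below 0 was 41, 37 and 37 of 43. With the deposited scaling 7994 of the 14312 expressed transcripts were below 0. The median of transcripts with a mean of 100 FPKM or more was not computed with the other scalings. In the whole table the deposited scaling gave 1831 transcripts called higher and 2516 lower, median-ratio centring 2173 and 1827, and upper-quartile scaling 2098 and 1931. Over the same days the markers of cycling cells fell and those of myotubes rose (given above), and the part of either in these decreases was not tested. In bulk RNA, fewer cells of a type and less RNA per cell cannot be told apart.

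**Figure D2:**
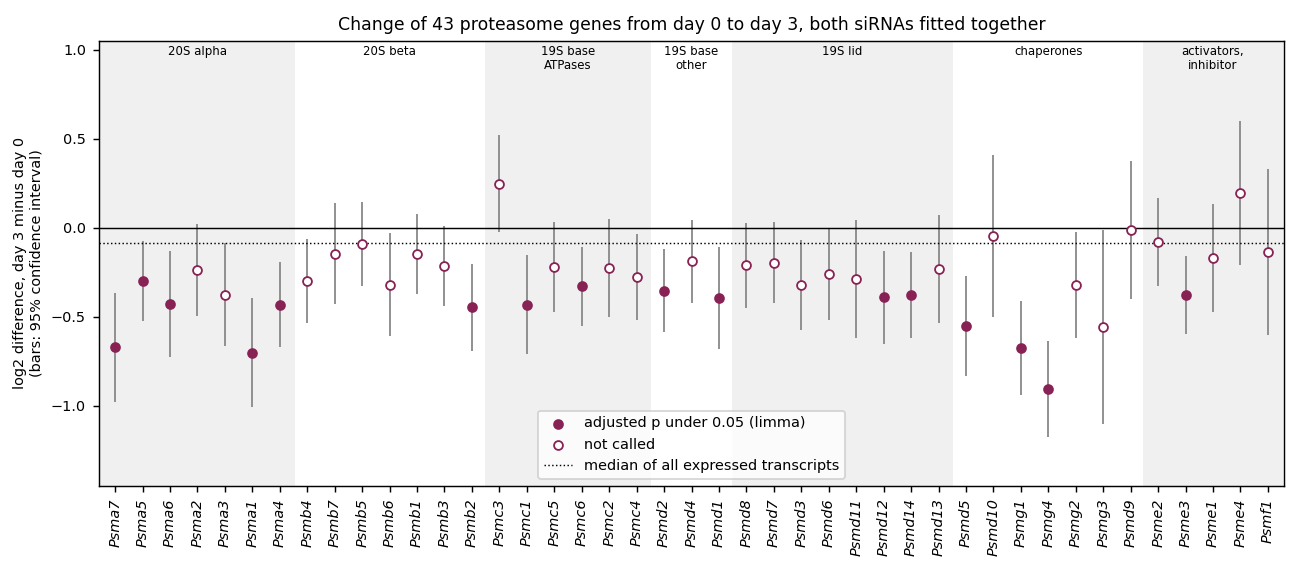
Difference between day 3 and day 0 (log2, points) with its 95% confidence interval (bars) for the 43 expressed proteasome genes by role, from the fit over both siRNAs; filled points passed the test. With the deposited scaling all points but those of Psmc3 and Psme4 lie below 0 (37 of 43 points with either other scaling), and Psmg4 is lowest at -0.91.

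The largest decrease was that of Psmg4, a chaperone of the alpha ring (mm9 chromosome 13, 34254833 to 34270041). Its level was 178, 189, 182 and 98.8 FPKM in siCtrl and 196, 196, 186 and 100.1 FPKM in siKlf5 on days 0 to 3. The first 3 days were flat with either siRNA and day 3 stood below all of them, with no overlap. The difference between day 3 and day 0 was -0.91 ± 0.12 (log2, SE; 46.7% lower; limma adjusted p = 0.00097), on 85 to 289 reads per library.

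Psmg1, which pairs with Psmg2 as the first chaperone of the alpha ring (mm9 chromosome 16, 96201542 to 96212510), took another course. It was at 245, 129, 157 and 155 FPKM in siCtrl and at 277, 161, 181 and 171 FPKM in siKlf5. Both day 0 libraries were above all later ones, so the decrease was already there on day 1 (-0.85 log2, limma adjusted p = 0.0028) and was -0.68 ± 0.11 (SE) on day 3 (adjusted p = 0.0035). Psmg4 and Psmg1 were the only members called lower on day 3 under all 15 other settings of the fit, each library left out in turn included.

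Psma1, an alpha subunit (mm9 chromosome 7, 121408064 to 121419630), was at 674, 540, 487 and 445 FPKM in siCtrl and at 714, 440, 553 and 408 FPKM in siKlf5. Psma7, another alpha subunit (mm9 chromosome 2, 179771072 to 179777169), was at 1099, 1068, 654 and 644 FPKM in siCtrl and at 1150, 916, 749 and 773 FPKM in siKlf5. Psmd5, a chaperone of the base that binds Psmc2 (mm9 chromosome 2, 34707609 to 34726482), was at 307, 222, 195 and 208 FPKM in siCtrl and at 326, 198, 220 and 224 FPKM in siKlf5. Psmd5 was at its lower level from day 1 on, Psma7 was lowest on days 2 and 3, and for all 3 genes both day 0 libraries were above every later one. By day 3 the differences were -0.70 ± 0.13 for Psma1, -0.67 ± 0.13 for Psma7 and -0.55 ± 0.12 for Psmd5 (log2, SE; limma adjusted p = 0.0056, 0.0071 and 0.011). Each lost its call when any 1 of the 4 libraries of days 0 and 3 was left out, and without any of these 4 libraries 2 members in all were called lower, beside 5.25% to 6.51% of the table. Each also lost it without limma's trend (adjusted p between 0.057 and 0.062) and with no filter on low values (0.061 to 0.088).

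**Figure D3:**
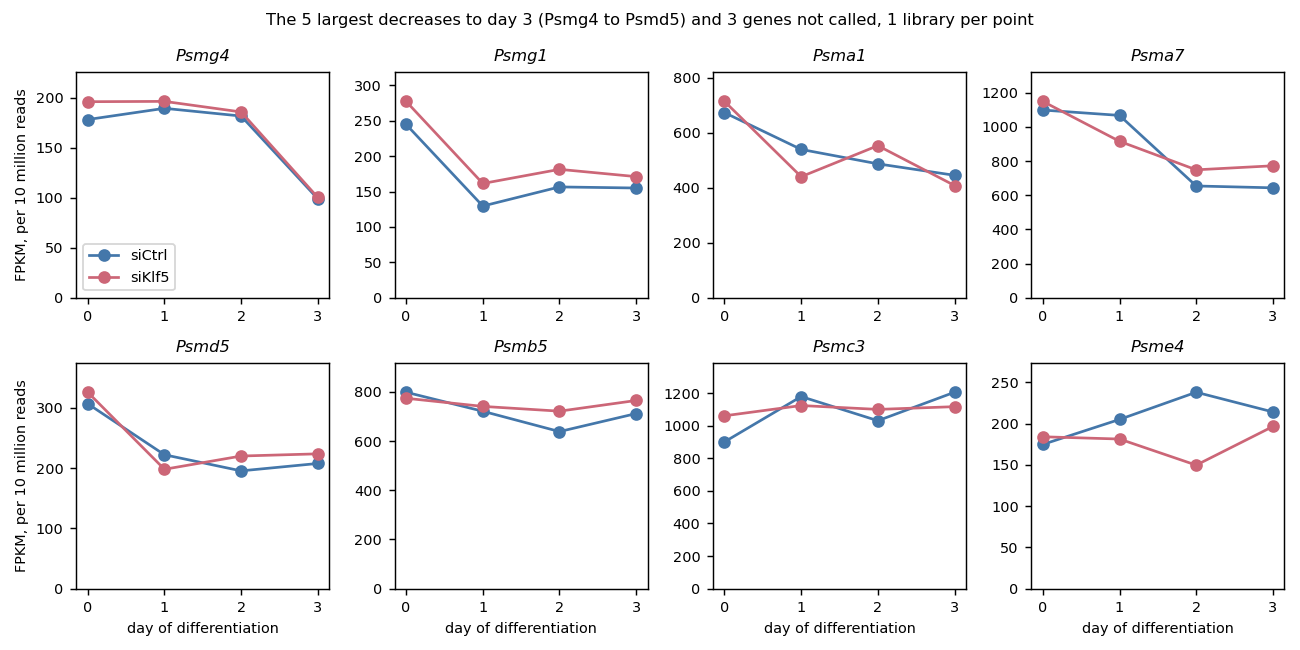
FPKM (linear axis from 0) on days 0 to 3 in siCtrl and siKlf5, 1 library per point, for the 5 largest decreases among called members (Psmg4, Psmg1, Psma1, Psma7, Psmd5) and for Psmb5, Psmc3 and Psme4, which were not called. Psmg4 drops from 182 to 98.8 FPKM between days 2 and 3 in siCtrl, while Psmg1 drops from 245 to 129 FPKM between days 0 and 1.

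The remaining 11 called members were Psma4, Psma5, Psma6, Psmb2, Psmc1, Psmc6, Psmd1, Psmd2, Psmd12, Psmd14 and Psme3, with differences between -0.45 (Psmb2) and -0.30 (Psma5). Psmd14 was among them (-0.38 ± 0.11, limma adjusted p = 0.029). Its call was kept in 5 other settings and lost in 10. It was lost without limma's trend (adjusted p = 0.11), with no filter (0.079) and with either other scaling (0.14 and 0.13). Leaving out any 1 library of day 0 or day 3 also lost it. None of the catalytic subunits was called. Their differences on day 3 were -0.32 for Psmb6 (adjusted p = 0.090), -0.15 for Psmb7 (0.41) and -0.09 for Psmb5 (0.54), with 95% intervals of -0.61 to -0.03, -0.43 to 0.14 and -0.33 to 0.14. With median-ratio centring and upper-quartile scaling the sign of Psmb5 turned (0.021 and 0.0013). The intervals of Psmb6 and Psmb7 include the decreases of several called members and that of Psmb5 includes the decrease of Psma5, and the difference between catalytic and other subunits was not tested.

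Psmc3 and Psme4 were the 2 members with a positive difference. Psmc3 was 0.25 ± 0.12 higher on day 3 (log2, SE; limma adjusted p = 0.16), and the rise was seen mainly in siCtrl, at 0.42 against 0.07 in siKlf5. Psme4, the PA200 cap, was at 175, 205, 238 and 214 FPKM in siCtrl and at 184, 181, 150 and 196 FPKM in siKlf5, and its difference was 0.19 ± 0.17 (adjusted p = 0.44). Neither passed the test. Over the 8 libraries, the levels of Psmc3 (Pearson r = -0.58) and Psme4 (r = -0.41) ran against the mean of the other members, whereas the median r of the 43 was 0.78 and the highest was that of Psma1 (0.92). These correlations describe 8 libraries that share day, depth and scaling.

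The decreases did not grow by even steps. Over days 1, 2 and 3 the members' median change from day 0 was -0.09, -0.25 and -0.26 (log2) in siCtrl. In siKlf5 this median was -0.26, -0.25 and -0.33. In the fit over both siRNAs it fell further each day, to -0.30 on day 3 (-0.09 over all expressed transcripts). On day 1 the members' median difference from day 0 was -0.17 (log2; -0.09 over all expressed transcripts), with 5 members called lower (9.93% of the table) and 1 higher (6.82% of the table). The 5 were Psma1, Psmd5, Psmg1, Psmg2 and Psme3, of which 3 are chaperones, and the 1 that rose was Psme2, a subunit of the PA28 cap (0.40, limma adjusted p = 0.039). Among transcripts with a mean of 100 FPKM or more, the median was -0.08, and 15.5% were called lower and 10.1% higher on that day. The members' share lower (11.63%) was thus below that of genes of their level. On day 2 the median was -0.26 (-0.02 over all), with 9 called lower (11.6% of the table) and none higher (11.5% of the table), namely Psma5, Psma7, Psmd1, Psmd2, Psmd3, Psmd5, Psmd12, Psmg1 and Psme3. Their share (20.93%) was close to the 20.4% called lower among transcripts with a mean of 100 FPKM or more, of which 15.1% were called higher. The median of those transcripts on day 2 was -0.09. Psmd5, Psmg1 and Psme3 were called lower on all 3 later days. Days 1, 2 and 3 share the day 0 libraries, so these counts are not independent of each other.

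Psmg2 and its partner Psmg1 differed in course after day 1. Psmg2 was at 178, 96.6, 210 and 143 FPKM in siCtrl and at 189, 119, 209 and 150 FPKM in siKlf5. It was lowest on day 1 and highest on day 2 with either siRNA, while Psmg1 stayed below its day 0 level. Its difference from day 0 was -0.77 on day 1 (log2, limma adjusted p = 0.0065), 0.19 on day 2 (0.33) and -0.32 on day 3 (0.096). The difference between the partners' courses was not tested. The day 1 libraries were the shallowest, at 7850497 and 8119452 reads.

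Most members were lower on day 3 with each siRNA taken alone, but no member's slope over the days in siCtrl passed the test. The members' median change from day 0 to day 3 was -0.26 in siCtrl and -0.33 in siKlf5 (log2; -0.07 and -0.08 over all expressed transcripts). In siCtrl 39 of 43 members and in siKlf5 40 of 43 were lower on day 3 than on day 0, as were 7710 and 7812 of the 14312 expressed transcripts. Lower with both were 38 members (88.4%) and 43.0% of all expressed transcripts. The other 5 were Psmc3, Psmd9, Psmd10, Psme4 and Psmf1. Of these, Psmd9 (0.18 in siCtrl, -0.20 in siKlf5), Psmd10 (0.04, -0.13) and Psmf1 (-0.36, 0.08) moved in opposite directions, but the 95% counting interval included 0 in both siRNAs for each, and the difference between siRNAs was tested only as the trend with day given further on. As a slope over the 4 days in siCtrl, with the spread estimated from all 8 libraries, 0 of 43 members were called falling and 0 rising by limma (1.01% and 1.82% of the table), with 4 at an unadjusted p under 0.05, and voom also called 0, with 3. The smallest adjusted p was that of Psma7 (0.075 in limma, 0.055 in voom). By role, the summed level of the core on day 3 was 79.3% of day 0 in siCtrl and 79.5% in siKlf5, that of the 19S particle 89.5% and 79.9%, that of the chaperones 73.8% and 71.8%, and that of the activators and inhibitor 89.0% and 90.5%.

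**Figure D4:**
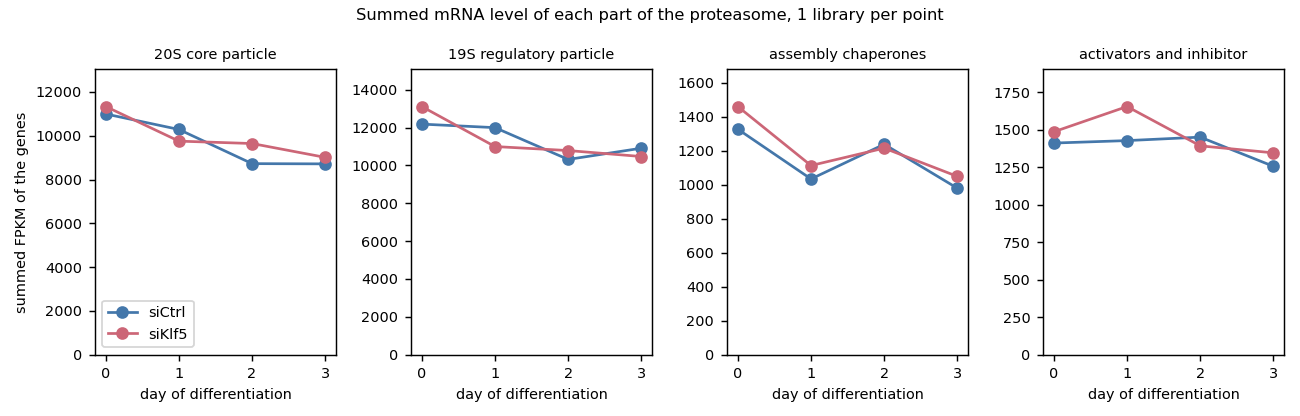
Summed FPKM of the 14 core, 17 regulatory particle, 7 chaperone and 5 activator or inhibitor genes on days 0 to 3 (linear axes from 0), 1 library per point. The core goes from 10995 to 8715 FPKM in siCtrl and from 11336 to 9011 FPKM in siKlf5.

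Klf5 knockdown changed no proteasome gene past the test. Over the 4 days 0 of 43 members were called higher (0.00699% of the table, 1 transcript) and 0 lower (0.0559%, 8 transcripts) in limma, with 2 members at an unadjusted p under 0.05, and limma voom on recovered reads called 0 members as well, with 1 at an unadjusted p under 0.05, while it called 50 transcripts of the table higher and 179 lower (1.6% in either direction). The members' median log2 difference, siKlf5 minus siCtrl, was 0.04 against 0.01 over all expressed transcripts, and their differences ranged from -0.22 to 0.23. The share called in the whole table is small in both fits, so the count of 0 says little about the members. The intervals are more informative: for Psmb5 the difference was 0.07 (95% interval -0.10 to 0.24), for Psmb6 0.10 (-0.11 to 0.30), for Psmb7 -0.02 (-0.22 to 0.18), for Psmd4 0.08 (-0.08 to 0.25) and for Psmd14 -0.12 (-0.29 to 0.06). For these genes a change of 1.5-fold in either direction, averaged over the days, lies outside the interval.

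The smallest p-values were those of Psme2, Psmg1 and Psme4. Psme2 was at 367, 460, 472 and 335 FPKM in siCtrl and at 419, 585, 498 and 412 FPKM in siKlf5 on days 0 to 3. It was higher in siKlf5 on all 4 days, by 0.23 ± 0.08 (log2, SE; limma adjusted p = 0.41). Psmg1, whose levels are given above, was also higher on all 4 days, by 0.21 ± 0.08 (adjusted p = 0.47). Psme4 was higher in siKlf5 on day 0 and lower on the other days, by -0.22 ± 0.12 over all 4 (adjusted p = 0.60), and by -0.076 when either library of day 2 was left out. None of these passed the correction. Psmb4, Psmd4, Psme2, Psme3, Psmg1 and Psmg4 were higher in siKlf5 on all 4 days (6 of 43, 13.95%, against 9.05% of all expressed transcripts) and Psmd14 was lower on all 4 (1 of 43, 2.33%, against 9.03%).

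On single days the members stayed close to 1:1. Past 1.5-fold, 0 members were higher and 0 lower on day 0 (9.22% and 11.1% of all expressed transcripts), 1 higher and 0 lower on day 1 (16.4% and 11%), 0 higher and 1 lower on day 2 (7.69% and 13%), and 0 and 0 on day 3 (10.7% and 12.5%). The members' median level was 568 FPKM, against 74.0 over all expressed transcripts, and the share among transcripts of like level was not computed. Whether the members moved less than transcripts of like level was thus not tested. From day 0 to day 3 in turn, the log2 ratio had a median of 0.08, -0.10, 0.05 and 0.00 over the members and of 0.00, 0.03, -0.03 and 0.00 over all expressed transcripts, and on day 3 it was 0.04 for the members and 0.03 for all with upper-quartile scaling. The sign of the members' median thus changed from day to day, with 36, 15, 30 and 21 of the 43 members higher in siKlf5 on days 0, 1, 2 and 3. Of all expressed transcripts, 50.1%, 53.05%, 44.52% and 48.53% were higher on these days. A pair of libraries gives no test of these shifts, and the library pairs differ in depth and scaling.

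The 2 members past 1.5-fold were Psmg3 and Psme4. Psmg3, the chaperone partner of Psmg4, was at 157, 93.5, 156 and 94.8 FPKM in siCtrl and at 150, 154, 121 and 114 FPKM in siKlf5. On day 1 its log2 ratio was 0.72, with a 95% Clopper-Pearson interval of -0.20 to 1.68 that rests on 100 and 171 reads and includes 0. For Psme4 on day 2 the ratio was -0.67, with an interval of -0.86 to -0.48. Intervals were computed on reads divided by 6, the most a fragment leaves when each end is limited to 3, and cover counting error only. No member passed 1.5-fold on more than 1 day. Intervals lay above 0 for Psmc3 and Psmc5 on day 0 and for Psmb4, Psmb6, Psmc1 and Psmc2 on day 2, and below 0 for Psmd1 and Psmd11 on day 1, Psme4 on day 2 and Psmd8 on day 3. No gene appeared in these lists on 2 days. Each day had 43 intervals, of which at most 4 were above 0 (day 2) and at most 2 below 0 (day 1). Some 95% intervals exclude 0 through counting error alone. The share over all expressed transcripts was not computed, so whether these genes responded to the knockdown was not tested.

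**Figure D5:**
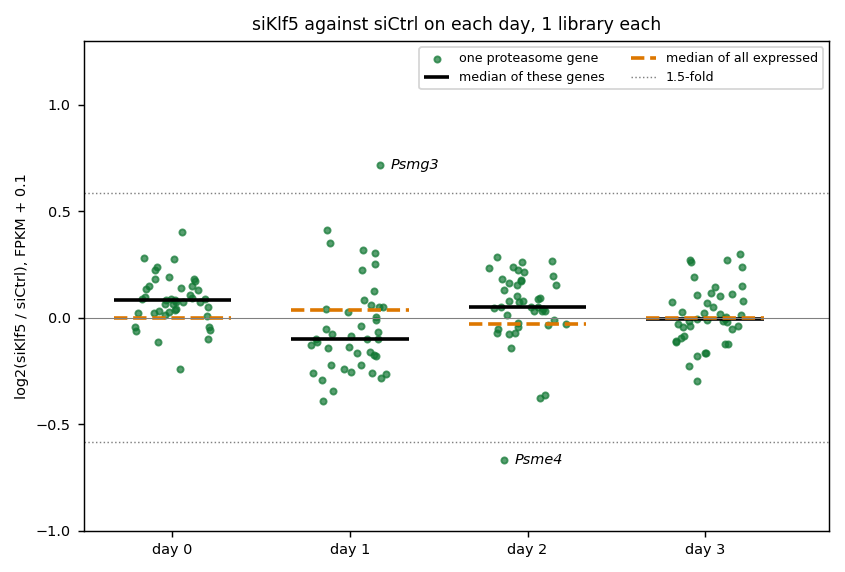
log2 ratio of siKlf5 to siCtrl (FPKM + 0.1) for each of the 43 expressed proteasome genes on days 0 to 3, 1 library per siRNA and day; solid lines are the members' median, dashed lines that of all 14312 expressed transcripts, and dotted lines 1.5-fold. The members' medians lie between -0.10 and 0.08, and Psmg3 on day 1 and Psme4 on day 2 are the points past 1.5-fold.

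The knockdown effect showed no trend with day that passed the test. In the fit with day as a number, 0 of 43 members were called with a rising slope (0% of the table) and 0 with a falling slope (0%) by limma, and 0 had an unadjusted p under 0.05 there or in voom. Psma3 had the smallest p. This alpha subunit was at 678, 614, 528 and 457 FPKM in siCtrl and at 627, 549, 539 and 552 FPKM in siKlf5, so it was lower in siKlf5 on days 0 and 1 and higher on days 2 and 3, and the ratio's slope was 0.13 per day (log2, limma adjusted p = 1.00). Psmd9, a chaperone of the base, was at 99.2, 93.3, 112 and 112 FPKM in siCtrl and at 105, 109, 125 and 91.2 FPKM in siKlf5, with a slope of -0.12, which turned to 0.045 without the siKlf5 library of day 3 and ranged down to -0.21 without that of day 0. The slope of Psme4 was -0.11, and it was -0.26 or -0.22 without the siKlf5 or siCtrl library of day 3 and -0.031 or -0.051 without the siCtrl or siKlf5 library of day 0. The adjusted p of both slopes was also 1.00.

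Genes that act with the proteasome were read beside it, in the fit with the deposited scaling only. The knockdown called none of 12 partners without a Psm symbol. On day 3 Usp14 and Uchl5, both deubiquitinases that bind the 19S particle, were called lower than on day 0. Their share of the list (16.67%) was close to that of the table (17.6%). Uchl5 was at 182, 101, 119 and 92.2 FPKM in siCtrl and at 208, 158, 114 and 121 FPKM in siKlf5, with a difference of -0.88 ± 0.18 (log2, SE; limma adjusted p = 0.0083). For Usp14 it was -0.62 ± 0.12 (adjusted p = 0.0063). The core maturation factor Pomp stayed between 596 and 809 FPKM and was not called (-0.11, adjusted p = 0.47).

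A list around the transcription of the subunits held 7 expressed genes, not all of them transcription factors. Of these, Nfe2l1 was called higher (14.29%, against 12.8% of the table) and Sqstm1 lower (14.29%, against 17.6%) on day 3. Nfe2l1 encodes the factor that raises subunit genes when proteasome activity is short. It was at 691, 783, 920 and 1254 FPKM in siCtrl and at 680, 675, 905 and 1120 FPKM in siKlf5, and the difference was 0.79 ± 0.10 (log2, SE; limma adjusted p = 0.0011). Both day 3 libraries were above all others, and day 2 was also higher than day 0 (0.41, adjusted p = 0.025). Nfe2l1 mRNA thus rose over the days on which 16 members fell. Sqstm1, the p62 cargo receptor of autophagy, was lower by -0.56 ± 0.12 (adjusted p = 0.0084), and Keap1 was called lower on days 1 and 2 but not on day 3 (-0.41, adjusted p = 0.055). Nfe2l2 was not called (-0.05, adjusted p = 0.77).

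Of 15 genes for ubiquitin and its delivery, 3 were called lower on day 3 and none higher: Rps27a (-0.48, limma adjusted p = 0.032), which carries a ubiquitin unit fused to a ribosomal protein, and the shuttle factors Rad23b (-0.43, 0.029) and Ubqln1 (-0.40, 0.019). On day 1 Nploc4 (-0.41, limma adjusted p = 0.045) and Ubqln4 (-0.40, 0.039) were called lower (13.33% of the list, against 9.93% of the table). Ubb, which encodes a chain of ubiquitin units, was not called on day 3 (0.30, adjusted p = 0.23). No gene of these lists was called for the knockdown or for its trend with day. Of the interferon-induced beta subunits, Psmb8 and Psmb9 had means under 1 FPKM, and Psmb10 was at 60.9, 86.0, 119 and 93.3 FPKM in siCtrl and at 74.6, 61.9, 109.8 and 119 FPKM in siKlf5. Psmb10 was called higher on day 2 (0.76, adjusted p = 0.044) and missed the threshold on day 3 (0.65, adjusted p = 0.062).

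The spans of 4 members overlap another expressed row of the table, namely Psmb5 with Mir686, Psma4 with AY074887, Psmd1 with Htr2b and Psme1 with Emc9. Reads of both strands were counted, so reads of the last 3 pairs, which lie on opposite strands, cannot be told apart where their exons meet. Psmb5 and Mir686 (mean of 1171 FPKM) lie on the same strand, and reads they share cannot be told apart either.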

How the data were processed

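RNA-seq was analysed from the table of FPKM values that the authors deposited, and the study's ChIP-seq samples are not analysed here. The authors selected poly(A) RNA, sequenced paired ends, aligned reads to mm9 with STAR and counted them over the exons of RefSeq transcripts with HOMER. Per the file headers, reads of either strand counted, a position could give 3 reads at most, genes were condensed to 1 transcript and each matrix was scaled to 10000000. Another 8 columns of log2 values were not used.

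FPKM times exon length gave whole reads (within 0.1) for at least 99.993% of the values checked in each library. limma 3.58.1 (R 4.3.3) was fitted with a mean-variance trend to log2(FPKM + 0.1) for 14312 transcripts (mean of 1 FPKM or more), with siRNA and day as factors, or with siRNA, day as a number and their product for the trend. p-values are two-sided and Benjamini-Hochberg adjusted over all transcripts. Ratios on single days had no test. Only the siKlf5 difference of the limma fit was tested on simulated data, drawn with the same spread for every transcript. The day differences and the slopes were not tested in that way.

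The members, gene lists and tests were chosen with earlier results of these data known. Named were Klf5, the catalytic subunits, Psmd14, Psmd4, the 3 highest and 3 lowest members, called members (if over 10, the 5 largest changes in each direction), members past 1.5-fold on at least 2 days (none), the 3 smallest p-values of tests with no call, and called genes of the pathway lists. Some values of the ubiquitin list are not reported here. Other genes are given by value after these were seen, among them Psmg2, Psmg3 and Pomp. Alternatives were other pseudocounts, filters, scalings, fits and fold cutoffs, each library left out in turn, and, chosen after seeing the levels, the share called in the range of 100 FPKM and above. Promoters are from RefSeq (GRCm38.p6), and gene coordinates are those of the table (mm9).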

Additional observations from a re-analysis of the deposited data

Results flagged for a closer look

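3 of the 43 expressed members moved in opposite directions from day 0 to day 3 with the control and the Klf5 siRNA, each change being that between 1 library of each day. Psmd9, a chaperone of the base, differed by 0.18 in siCtrl (log2, day 3 minus day 0; 95% counting interval -0.26 to 0.61) and by -0.20 in siKlf5 (-0.69 to 0.28). Psmd10, another chaperone of the base, differed by 0.035 in siCtrl (-0.44 to 0.51) and by -0.13 in siKlf5 (-0.58 to 0.32). Psmf1, the inhibitor, differed by -0.36 in siCtrl (-0.85 to 0.13) and by 0.078 in siKlf5 (-0.45 to 0.61). The difference between siRNAs in these changes was not tested, having 1 library for each siRNA and day. All 6 intervals include 0, and the siRNA-by-day trend over the 4 days was called for none of these genes (limma adjusted p = 1.00 for each).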

How the results depend on the processing

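The decrease of proteasome genes from day 0 to day 3 kept its direction under every setting tried, with a median over the members between -0.34 and -0.19 (log2), but the number of members called lower, 16 as reported, was 2 without limma's trend (4.65% of members, against 9.54% of the table), 4 with no filter (9.30%, against 5.23%), 5 with median-ratio centring (11.63%, against 12.8%) and 6 with upper-quartile scaling (13.95%, against 13.5%). It was 14 with limma voom (32.56%, against 18.6%), 16 with a pseudocount of 1 (37.21%, against 18%) and 17 with a minimum mean of 5 FPKM (39.53%, against 20.9%). Without 1 library of day 1 or 2 the number was 13 or 14 (30.23% to 32.56%, against 12.7% to 16.9% of the table). Leaving out 1 library of day 0 or day 3 leaves 1 library on that day. Most calls of the members and of the table were then lost, and the members were called lower no more often than the table. The members' median was between -0.34 and -0.28 in those fits. Fewer samples enter these last fits and more transcripts are tested with no filter, and the cause of the drop without a trend was not tested. The Klf5 knockdown called 0 members in all 16 alternatives, and its trend with day 0 in all 15. A cutoff of 25% above (or the same factor below) on single days gave 1 member higher on day 0 (16.8% of the table), 3 higher and 2 lower on day 1 (27.5% and 18.8%), and 3 lower on day 2 (22.8%). Of the called members, only Psmg4, Psmg1, Psma1, Psma7, Psmd5 and Psmd14 were followed by gene, and none of these turned its sign. Of followed genes with no call, Psmb5 on day 3 turned from -0.09 to 0.021 with median-ratio centring and 0.0013 with upper-quartile scaling. The slope of Psmd9 turned from -0.12 to 0.045 without the siKlf5 library of day 3 (-0.21 to 0.045 with single libraries left out). Members below 0 on day 3 went from 41 to 37 with either of these scalings, so members other than Psmb5 turned as well. The labels give no replicate numbers, and day as a factor set siKlf5 against siCtrl of the same day; without it the knockdown also called 0 members. Depth limits Psmg3 and Psmg4 most, at 85 to 436 reads per library.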
